A study of Mus musculus with 2 samples.

Results

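The genes described here are the nuclear-encoded subunits of mitochondrial oxidative phosphorylation, measured by RNA sequencing in the cerebellum of adult mice. The members were chosen by symbol alone: nuclear protein-coding genes whose GENCODE symbol starts with Ndufa, Ndufb, Ndufc, Ndufs, Ndufv, Uqcr or Atp5, together with Sdha to Sdhd, Cyc1, Cycs and the Cox4 to Cox8 genes, without the Ndufaf assembly factors. This gave 87 members among 21461 nuclear protein-coding genes with values in both libraries. A second entry named Atp5o in GENCODE M21 had no row in the deposited tables and is not analysed here, and 13 entries that are not protein-coding were left out. The rule uses names and no measured value.

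Both libraries came from C57BL/6J mice, the standard inbred laboratory strain, aged 8 weeks and without any treatment or allele named in the labels. They form 1 group, so there is no contrast between conditions and no test of one; what can be described is how much of each subunit messenger RNA the tissue held and how far replicate 1 and replicate 2 stood apart. The labels give each library as tissue pooled from male and female littermates and give both the same donor record. Against that label, Xist, the RNA made from the inactive X chromosome of females, had 45928 counts in replicate 1 and 26 counts in replicate 2, while the Y-linked gene Ddx3y had 0 counts in replicate 1 and 3662 counts in replicate 2. The Y-linked genes Kdm5d, Eif2s3y and Uty also had 0 counts in replicate 1, against 3124, 3776 and 1328 in replicate 2. A difference between the libraries therefore cannot be told apart from one between the sexes. How much of their spread is technical was not tested. Of the members, Ndufa1, Ndufb11 and Cox7b lie on chromosome X. Replicate 1 held 79771873 estimated fragments on genes and replicate 2 held 80281011. Markers of the labelled tissue were present: the median was 340 TPM over 6 genes of granule neurons and 249 TPM over 4 genes of Purkinje neurons, against 0.863 TPM over 4 genes of forebrain neurons. The granule neuron genes ran from 7.96 TPM for Barhl1 to 778 TPM for Zic1. In bulk tissue, fewer cells of a type and less RNA per cell cannot be told apart.

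Oxidative phosphorylation passes electrons from NADH and succinate through complexes I to IV of the inner mitochondrial membrane to oxygen, and the proton gradient built on the way drives ATP synthase. Complex I accepts electrons from NADH, complex II from succinate, complex III hands them to the small soluble carrier cytochrome c, and complex IV reduces oxygen. Most subunits are made from nuclear genes and imported, while a few hydrophobic core subunits of complexes I, III and IV and of ATP synthase are made from mitochondrial DNA inside the organelle. Neurons rely on this pathway for the ion pumping that follows firing, and some subunits exist in tissue-specific copies used in muscle, testis or lung.

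Messenger RNAs of the subunits were abundant as a class. The median over the 87 members was 262 TPM (258 TPM in replicate 1 and 261 TPM in replicate 2), against 4.75 TPM over all nuclear protein-coding genes and 18.4 TPM over those at 1 TPM or more in both libraries. TPM is a length-corrected share of all transcripts in a library scaled to a fixed total, as computed by the authors. At 100 TPM or more in both libraries stood 73 members (83.9%), against 5.66% of all nuclear protein-coding genes, and 85 members reached 1 TPM in both. Among the 100 most abundant nuclear protein-coding genes 12 were members, and among the 500 most abundant 52 were. Summed, the members made up 30635 TPM in replicate 1 and 30467 TPM in replicate 2, which is 3.06% and 3.05% of all TPM, and they held 1.29% and 1.32% of gene counts. Their transcripts are short, with a median length of 730 nucleotides against 2083 over nuclear protein-coding genes. Across the 85 members averaging 1 TPM or more, level and transcript length had a Spearman rho of -0.32, against -0.19 across 13061 nuclear protein-coding genes; genes are not independent replicates, and both quantities enter the TPM calculation.

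**Figure D1:**
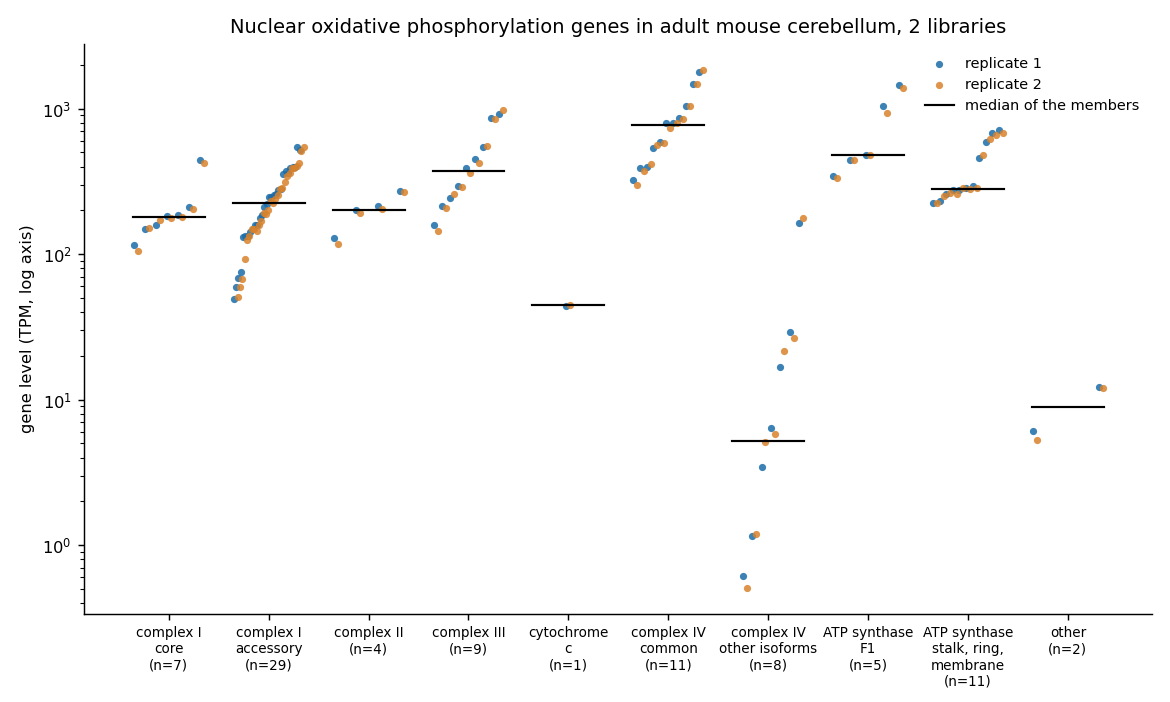
Level of each member in TPM on a log axis, by complex and role, with 1 point per library (replicate 1 blue, replicate 2 orange) and the median of the members as a black line; Cox8c, with 0 counts, is not drawn. The common complex IV subunits stand highest, at a median of 769 TPM, and the other complex IV isoforms spread from 170 TPM down to under 1 TPM.

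Complex I, the largest of the complexes, had 36 members and a median of 196 TPM. Its 7 core subunits, which carry the flavin and the iron-sulfur clusters that move electrons, had a median of 180 TPM. Ndufs7, which binds the last iron-sulfur cluster before ubiquinone, led the core at 446 TPM in replicate 1 and 423 TPM in replicate 2. Ndufv1, the NADH-binding subunit, had 212 and 205 TPM, and Ndufs3 had 182 and 178 TPM. The lowest core subunits were Ndufs8 at 148 and 151 TPM and Ndufs1, the large subunit with several iron-sulfur clusters, at 115 and 105 TPM. The other 6 core subunits lay below Ndufs7, from 110 TPM for Ndufs1 to 208 TPM for Ndufv1 on average. Ndufs7 was 3.95 ± 0.0914 times the level of Ndufs1, the lowest (SD, n = 2).

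The 29 accessory subunits of complex I, which surround the core and have roles in its assembly and stability, had a median of 226 TPM and a wider range, from 49.8 to 535 TPM. Ndufb8 was highest at 524 TPM in replicate 1 and 546 TPM in replicate 2, followed by Ndufa3 at 545 and 512 TPM, Ndufb9 at 399 and 421 TPM and Ndufs5 at 395 and 403 TPM. The order of Ndufb8 and Ndufa3 turned round between the libraries, so these neighbours did not differ beyond their spread. Lowest were Ndufa11 at 49.3 and 50.4 TPM and Ndufb4 at 59.5 and 59.9 TPM. The low place of Ndufa11 came with a transcript length of 2661 nucleotides in the deposited table: it had 6425 and 6940 counts, near the 7498 and 7934 counts of Ndufa6, which at 560 nucleotides stood at 390 and 394 TPM. Whether the annotated length of Ndufa11 is the one used in cerebellum was not tested.

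Ndufb4 has a nuclear copy without introns that carries its whole coding sequence. The processed pseudogene Ndufb4c (mm10 chromosome 15, positions 73809507 to 73809896) was identical to the 390 coding bases of Ndufb4 (ENSMUSG00000022820.3, mm10 chromosome 16, positions 37647170 to 37654453) over all of them. The deposited tables divided the reads almost evenly, with 2845 and 2629 counts on Ndufb4c and 2363 and 2482 counts on Ndufb4. In TPM, which corrects for length, the shorter copy stood far higher, at 277 and 248 TPM against 59.5 and 59.9 TPM for Ndufb4. The stretch below, from GENCODE M21, is shown because it reads the same in the gene (spliced, minus strand, between chr16:37649122-37654239) and in the copy (minus strand, chr15:73809678-73809776), and because reads that lie within the coding sequence do not tell gene and copy apart.
Ndufb4 and Ndufb4c: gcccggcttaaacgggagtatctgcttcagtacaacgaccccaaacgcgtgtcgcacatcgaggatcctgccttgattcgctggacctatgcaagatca
The level of Ndufb4 is therefore uncertain, and is given here only as the deposited estimate.

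Complex II, succinate dehydrogenase, links the citric acid cycle to the electron chain and is the one complex made wholly from nuclear genes. Its 4 subunits spanned a 2.18 ± 0.115-fold range (SD, n = 2). Sdha, the flavoprotein that oxidizes succinate, had 271 TPM in replicate 1 and 266 TPM in replicate 2. Sdhb, the iron-sulfur subunit, had 213 and 203 TPM. The membrane anchors Sdhc and Sdhd had 200 and 191 TPM and 129 and 118 TPM. Sdhd was lowest in both libraries, and the ranges of Sdhb and Sdhc over the libraries lay side by side without overlap.

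Complex III, the cytochrome bc1 complex, had 9 nuclear members with a median of 375 TPM. The small subunits Uqcr11 and Uqcr10 were highest, at 925 and 979 TPM and at 858 and 848 TPM. Uqcrh, the acidic hinge protein near cytochrome c1, had 544 and 553 TPM, and Uqcrc1, a large core protein on the matrix side, had 454 and 426 TPM. Cyc1, the cytochrome c1 protein that carries a heme, had 391 and 360 TPM and stood at the median of the complex, and Uqcrfs1, the Rieske iron-sulfur protein, was lowest at 159 and 145 TPM. Uqcrc2, the second large core protein, had 215 and 209 TPM. The ratio of Uqcr11 to Uqcrfs1 was 5.83 in replicate 1 and 6.74 in replicate 2.

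Cytochrome c carries single electrons between complexes III and IV. Its somatic gene Cycs (ENSMUSG00000063694.5, mm10 chromosome 6, positions 50562563 to 50566538) had 44.0 TPM in replicate 1 and 45.0 TPM in replicate 2, below every subunit of complexes II and III and of ATP synthase in both libraries. Cyc1, its electron donor, stood 8.45 ± 0.623 times higher (SD, n = 2). As with Ndufa11, the transcript of Cycs is long in the deposited table, 2898 nucleotides, and it held 6291 and 6690 counts, more than the 4363 and 4898 counts of Uqcrb at 252 TPM.

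Complex IV, cytochrome c oxidase, held the highest nuclear subunits by mm10 TPM. Cox4i1 (ENSMUSG00000031818.8, mm10 chromosome 8, positions 120668222 to 120674207), the ubiquitous form of its largest nuclear subunit, had 1800 TPM in replicate 1 and 1848 TPM in replicate 2. Cox6a1 had 1487 and 1475 TPM. Ndufa4, named as a complex I subunit and since found in complex IV, had 1045 and 1042 TPM, and Cox6b1, which sits on the side that docks cytochrome c, had 857 and 850 TPM. The 11 common subunits ranged from 312 TPM for Cox7b to 1824 TPM for Cox4i1, and all passed 100 TPM in both libraries. A readthrough transcript on the same strand as Cox4i1, Gm20388, had 3163 and 2497 counts against 52061 and 56094 for Cox4i1; the expected counts of Cox4i1 were whole numbers in both libraries.

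In the families of complex IV with tissue-specific copies, the widely expressed form was the highest member in both libraries in all 7 cases. Cox4i2, the form known from lung and from hypoxia, had 6.34 TPM in replicate 1 and 5.80 TPM in replicate 2, so that Cox4i1 stood 284-fold and 319-fold above it. The muscle form Cox6a2 had 0.610 and 0.510 TPM from 15 and 13 counts, with Cox6a1 2437-fold and 2891-fold above it. Exact Poisson intervals on those counts run from 0.344 to 1.01 TPM and from 0.270 to 0.868 TPM and cover counting error only. The testis form Cox6b2 was less rare, at 29.1 and 26.5 TPM, with Cox6b1 29.5-fold and 32-fold above it. Reads spliced over 1 intron of Cox6b2 numbered 268 and 286 in the mm9 junction table.

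In the Cox7a family the levels were closer together. Cox7a2 had 393 and 371 TPM, and Cox7a2l, a related protein that joins complexes III and IV into supercomplexes, had 165 and 176 TPM; C57BL/6 mice carry a shortened version of this protein. The heart and muscle form Cox7a1 had 16.8 and 21.7 TPM from 149 and 199 counts. Cox7b had 325 and 300 TPM, against 1.15 and 1.2 TPM for Cox7b2. Cox8a had 801 and 737 TPM, and the heart and muscle form Cox8b 3.42 and 5.08 TPM from 30 and 46 counts. The testis form Cox8c had 0 counts in both libraries, which allows up to 0.203 and 0.195 TPM at a floor of 3 counts per library, so Cox8a was at least 3951-fold and 3786-fold higher. Ndufa4 stood 172-fold and 196-fold above its relative Ndufa4l2, which is known as a hypoxia-induced gene and as a marker of brain pericytes, at 6.06 and 5.32 TPM.

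Markers of the tissues that use these copies were set beside them as whole lists. The 8 muscle genes summed to 8.96 TPM in replicate 1 and 7.40 TPM in replicate 2, of which Acta1 made up 4.84 and 3.64 TPM, while Ckm had 5 and 3 counts and Myh4 3 and 2 counts. The 5 testis germ cell genes summed to 0.0600 and 0.0400 TPM, with Prm1 at 0 counts in both, so Cox6b2 was present where these markers were at or near 0. The 7 pericyte and smooth muscle genes summed to 163 and 173 TPM, led by Vtn and Rgs5; their part in the levels of Cox4i2, Cox7a1 and Ndufa4l2 was not tested. For brown fat, Ucp1 had 33 and 39 counts and Cidea 402 and 415 counts.

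**Figure D2:**
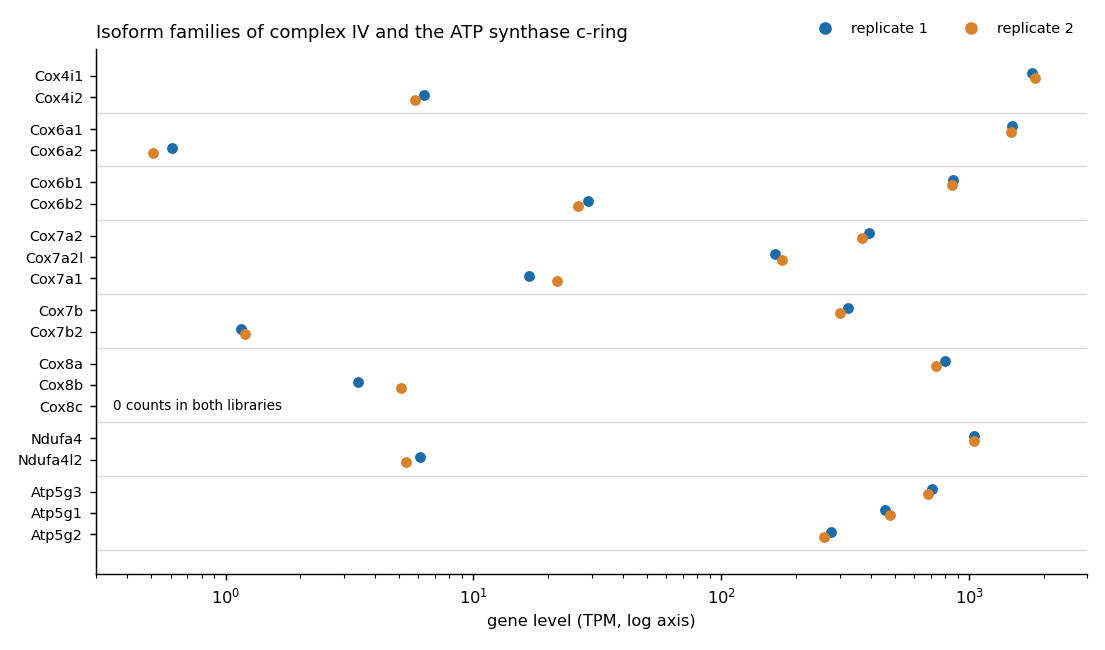
TPM of each member of the isoform families on a log axis, with 1 point per library (replicate 1 blue, replicate 2 orange). In the 7 complex IV families 1 form stands above the others, from 2.11-fold above Cox7a2l to 2891-fold above Cox6a2 among the forms drawn as points; Cox8c, at 0 counts, is marked in words, with Cox8a at least 3786-fold above it, while the 3 Atp5g genes lie between 260 and 708 TPM.

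ATP synthase had 16 members, all at 225 TPM or more on average, with a median of 392 TPM. In its catalytic head, F1, the beta subunit gene Atp5b (ENSMUSG00000025393.8, mm10 chromosome 10, positions 128083273 to 128090391) had 1448 TPM in replicate 1 and 1383 TPM in replicate 2. The alpha subunit gene Atp5a1 had 1037 and 935 TPM. The genes for the central stalk, which turns inside the head, were lower: the delta subunit gene Atp5d had 482 and 480 TPM, the epsilon subunit gene Atp5e 445 and 442 TPM and the gamma subunit gene Atp5c1 345 and 334 TPM. The head holds several alpha and beta subunits for each gamma subunit; at the level of messenger RNA, Atp5b was 4.16 ± 0.0382 times and Atp5a1 2.90 ± 0.144 times the level of Atp5c1 (SD, n = 2).

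The 11 members of the peripheral stalk, the ring and the membrane part ranged from 225 to 694 TPM. Atp5g3 was highest at 708 and 679 TPM, followed by Atp5l, subunit g, at 676 and 655 TPM, Atp5h, subunit d of the peripheral stalk, at 589 and 616 TPM, and Atp5g1 at 456 and 480 TPM. Atp5mpl at 226 and 223 TPM and Atp5k, subunit e, at 231 and 251 TPM were lowest. The genes Atp5g1, Atp5g2 and Atp5g3 encode the same ring subunit, which carries the protons, with different import signals. Together they reached 1441 TPM in replicate 1 and 1420 TPM in replicate 2, of which Atp5g3 gave 49.2% and 47.8%, Atp5g1 31.7% and 33.8% and Atp5g2 19.1% and 18.3%. By mm10 TPM, Atp5g3 stood 1.55-fold and 1.41-fold above Atp5g1. In the other 7 families the leading form stood further above its next member, by 2.11-fold or more. In the older mm9 tables, in RPKM, Atp5g3 had 58.6 on average, Atp5g1 6.65 and Atp5g2 3.71. There Cox7a2 had 30.5 against 17.7 for Cox7a2l, so this contrast between families did not hold in mm9.

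The ring subunit is one case where different bases give the same product. Over the last 228 coding bases, stop codon included, Atp5g3 differed from Atp5g1 at 46 bases (79.8% identity) and from Atp5g2 at 49 (78.5%), and Atp5g1 from Atp5g2 at 34 (85.1%), yet 0 of the 75 codons before the stop gave another amino acid in any pair. The stretch of 120 coding bases below, from GENCODE M21 (mm10, spliced, minus strand), is shown with the 30 positions that differ among the genes in capitals. At each of these, a short read can tell at least 1 of the genes from the others. The capitals were not compared with pseudogene copies: Atp5g2 has one of 100% identity (Gm10175) and Atp5g1 one of 99.8% (Gm10039).
Atp5g3, within chr2:73908695-73909290: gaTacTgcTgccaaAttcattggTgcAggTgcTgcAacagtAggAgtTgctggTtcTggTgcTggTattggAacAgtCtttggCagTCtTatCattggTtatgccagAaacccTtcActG
Atp5g1, within chr11:96073206-96073629: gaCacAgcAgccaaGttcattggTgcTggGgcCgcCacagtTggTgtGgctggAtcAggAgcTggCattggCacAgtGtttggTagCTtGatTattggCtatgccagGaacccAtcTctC
Atp5g2, within chr15:102663116-102665160: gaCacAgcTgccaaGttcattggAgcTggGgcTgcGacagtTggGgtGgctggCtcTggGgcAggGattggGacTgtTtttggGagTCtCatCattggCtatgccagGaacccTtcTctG

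Among the symbols that the rule caught outside the complexes, Atp5s, which encodes a factor related to ATP synthase and not a core subunit, had 12.2 and 12.1 TPM; Ndufa4l2 was described above.

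Each complex except II also has subunits made in the mitochondrion, and these were far more abundant. The 13 protein-coding genes of the mitochondrial chromosome had a median of 6009 TPM, or 5425 TPM without mt-Atp8. In complex I the 7 mitochondrial genes summed to 20606 TPM in replicate 1 and 21459 TPM in replicate 2, against 8394 and 8494 TPM for the 36 nuclear members. In complex III mt-Cytb alone had 9438 and 9401 TPM, against 4082 and 4070 TPM for the 9 nuclear members. In complex IV mt-Co1, mt-Co2 and mt-Co3 summed to 49156 and 47467 TPM, against 9244 and 9213 TPM for the 19 nuclear members. For ATP synthase mt-Atp6 had 9267 and 9924 TPM, against 8039 and 7850 TPM for the 16 nuclear members; mt-Atp8, with 103845 and 133421 TPM from 81561 and 94745 counts on a very short transcript, is left aside here.

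Genes that build the complexes without staying in them were much lower. The 47 assembly factors had a median of 20.9 TPM, and 4 of them (8.51%) passed 100 TPM in both libraries, against 83.9% of the subunits and 5.66% of nuclear protein-coding genes. Cox14 was highest at 239 and 222 TPM, followed by Uqcc2 at 208 and 209 TPM, Cox17, a copper chaperone, at 158 and 162 TPM, and Coa3 at 143 and 110 TPM. The 15 transcription regulators of mitochondrial genes had a median of 16.1 TPM and none passed 100 TPM. Esrra, a nuclear receptor, was highest at 61.4 and 65.4 TPM, and Polrmt, the mitochondrial RNA polymerase, had 52.8 and 47.3 TPM. Ppargc1a, the coactivator often called the master regulator of mitochondrial biogenesis, had 19.3 and 18.8 TPM, and Nrf1 19.2 and 18.8 TPM.

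Between the libraries the subunits stood close together. Of 83 members with at least 100 counts over both libraries, 1 was at least 25% higher in one library than in the other on TMM-scaled counts (0.32 on the log2 scale), against 10.6% of 15543 genes tested. None of the members was 2-fold apart, against 0.637% of the genes tested. There is no replicate check on these ratios and no p-value. Counting depth enters that comparison: with at least 2000 counts over both libraries, 0 of 78 members and 2.78% of 9722 genes were past that mark, and the median distance from equality was 0.06 over these members and 0.07 over these genes on the log2 scale. Levels of the 87 members in replicate 1 and replicate 2 had a Spearman rho of 0.997.

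The member past the 25% mark was Cox7a1 (ENSMUSG00000074218.2, mm10 chromosome 7, positions 30184144 to 30186078), with 149 counts in replicate 1 and 199 counts in replicate 2, a log2 ratio of replicate 1 over replicate 2 of -0.40. The 2 libraries also differed for Cox8b, with 30 and 46 counts and a log2 ratio of -0.57, but it was below the count minimum. Counting intervals overlapped for both: 14.2 to 19.7 TPM and 18.8 to 24.9 TPM for Cox7a1, and 2.30 to 4.88 TPM and 3.72 to 6.78 TPM for Cox8b (exact Poisson). Next were Ndufs6 with 3433 and 3930 counts and a log2 ratio of -0.18 and Ndufa5 with 1470 and 1664 counts and -0.17. On the other side, Cox6a2 had a log2 ratio of 0.19 from 15 and 13 counts, Ndufa4l2 0.13, Ndufab1 0.11 and Uqcrq 0.10.

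Small as they were, the ratios lay more often on the side of replicate 2. On TMM-scaled counts 26 of 83 members were higher in replicate 1 and 57 in replicate 2, with a median log2 ratio of -0.04, whereas 49.6% of all genes tested were higher in replicate 1. Other genes moved between the same libraries: the 6 granule neuron markers summed to 290915 counts in replicate 1 and 247242 in replicate 2, the 4 Purkinje neuron markers to 250998 and 219317, and the 7 pericyte and smooth muscle markers to 17568 and 20449, and their part in the shift of the members was not tested. By complex, 9 of 36 complex I members, 4 of 16 ATP synthase members and 4 of 15 complex IV members were higher in replicate 1, against 3 of 4 in complex II and 5 of 9 in complex III. By transcript length, 5 of the 26 members under 600 nucleotides (19.2%) were higher in replicate 1, against 38.7% of 323 other genes of that length. Of the 32 members of 600 to 1000 nucleotides 9 (28.1%) were, against 40.1% of other genes, of the 16 members of 1000 to 1500 nucleotides 8, against 45.4%, and of the 9 longer members 4 (44.4%), against 51.4%. The Spearman rho between ratio and length was 0.17 across the 83 members and 0.08 across 15460 other genes, a weak relation in both. The medians over members were -0.06 at 600 to 1000 nucleotides and -0.04 under 600, so they did not follow the order of length throughout. Other scalings moved all genes together: with TPM + 1 in place of counts the median was 0.01 over members and 0.06 over all genes tested, and with the spike-in RNAs it was 0.01 and 0.05, so the members' median lay below that of all genes under each, as it did with TMM scaling (-0.04 and -0.00). Transcript length minus effective length, which follows fragment length, had a median of 196 nucleotides in replicate 1 and 201 in replicate 2 over long transcripts; its part in the shift was not tested. Without the 3 members on chromosome X the median stayed at -0.04. Sex-linked expression differed between the same libraries, so a part of sex in the shift cannot be told apart.

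**Figure D3:**
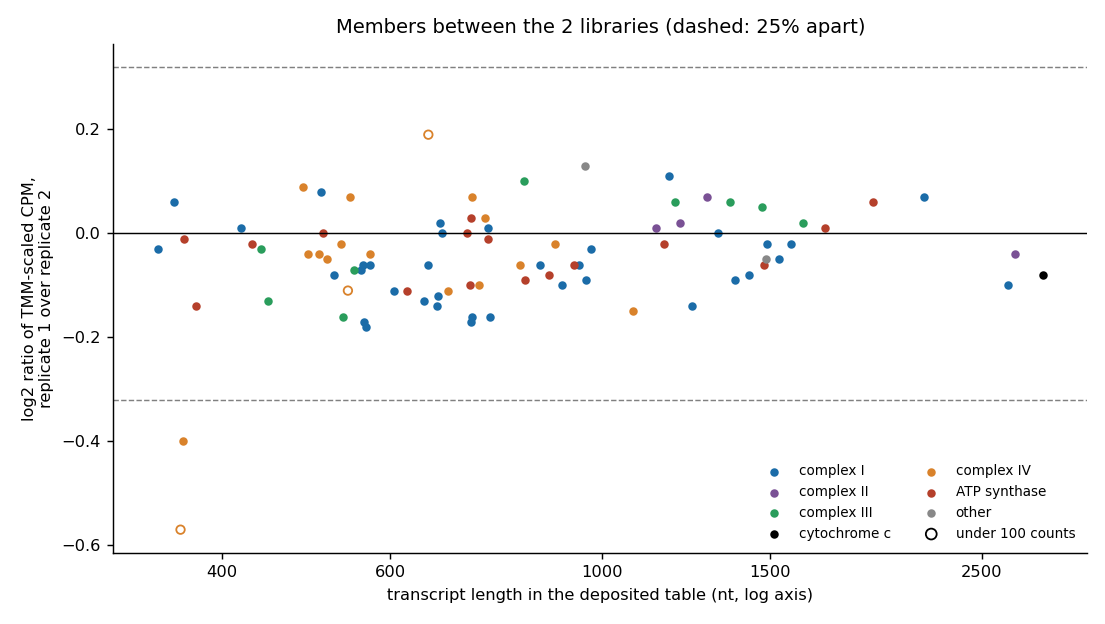
Log2 ratio of TMM-scaled counts, replicate 1 over replicate 2, against transcript length in nucleotides on a log axis, with 1 point per member coloured by complex and open circles for members under 100 counts; the dashed lines mark 25% apart (0.32). Cox7a1 at -0.40 and Cox8b at -0.57 lie below the lower line, and 57 of the 83 members with enough counts lie below 0.

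The division of each gene among its transcripts depends on how many are annotated. The leading transcript of each gene held a median of 95.5% of the gene's TPM over the 86 members with any counts, against 80.1% over 10460 nuclear protein-coding genes at 5 TPM or more. It held 90% or more in 61 members (70.9%), against 40.3% of those genes. In 28 of the 86 members the table lists 1 transcript, which fixes the share. Among the 58 with 2 or more it had a median of 91.5% and reached 90% in 33 (56.9%), against a median of 67.4% and a share of 20.9% over 7900 such nuclear protein-coding genes. The leader was the same transcript in both libraries for 85 of 86. In 4 members the leading transcript held under 50%. Ndufs1 divided its TPM between Ndufs1-201 at 34.6% and 38.8% and Ndufs1-203 at 35.3% and 30%, which exchanged the lead between the libraries. Cox6b2 was led by Cox6b2-206 at 31.8% and 33.6%. Ndufa5, alone among the members in having a non-coding transcript in the lead, had 35.9% and 40.8% in the processed transcript Ndufa5-204 and 35.2% and 26.1% in the coding Ndufa5-201.

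Ndufab1, the mitochondrial acyl carrier protein, shows how the division among transcripts touches the gene's level. Its leading transcript Ndufab1-203, of 1416 nucleotides, held 53.5% in replicate 1 and 34.6% in replicate 2, while the short Ndufab1-206, of 452 nucleotides, held 9.23% and 21%. The gene had more counts in replicate 1, 6953 against 6478 in replicate 2, but fewer TPM, 134 against 150, so its direction between the libraries depends on the unit.

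In 2 members an alternative exon has a known tissue pattern. Exon 9 of Atp5c1 (ENSMUSG00000025781.10, 37 bases, mm10 chromosome 2, positions 10056770 to 10056806, minus strand) lies at the end of the gamma subunit's coding sequence, and in human muscle the matching exon is skipped. The sequences, from GENCODE M21, show exon 9 in capitals between 20 bases of each neighbouring exon, and the same junction without it. The stop codon of the form with exon 9 lies inside the exon, and without it the coding sequence ends 4 bases into the last exon.
Atp5c1 with exon 9: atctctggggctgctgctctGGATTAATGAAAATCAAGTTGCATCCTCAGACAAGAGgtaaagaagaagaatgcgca
Atp5c1 without exon 9: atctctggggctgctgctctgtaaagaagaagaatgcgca
By junction reads and by mm10 transcripts, cerebellum mostly kept the exon. In the deposited mm9 junction table, 342 and 641 reads joined exon 9 to its upstream and downstream neighbours in replicate 1 and 70 skipped it; in replicate 2 these were 427, 706 and 73. Inclusion, with the mean of the 2 joining junctions, was 87.5% in replicate 1 (95% Wilson interval 84.6% to 90%) and 88.6% in replicate 2 (85.7% to 90.7%), where the replicate numbers of the mm9 tables name no library. The junctions around exon 9 had far fewer reads than the gene's best-covered annotated intron, which had 6869 and 7282. From mm10 transcripts, TPM of forms with the exon made up 90% and 92.2%.

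The mm9 transcript RPKM gave the opposite picture for Atp5c1. There the forms with exon 9 held 7.15 RPKM in replicate 1 and 10.3 RPKM in replicate 2, and the form without it held 20.2 and 20.1 RPKM, so that inclusion came out at 26.2% and 33.9%. The reads over the junctions, from the same mm9 set, and the mm10 transcripts both lie at 87.5% or more, so the transcript RPKM of this gene is not used for its isoforms.

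Ndufv3, an accessory subunit next to the NADH site of complex I, has a long exon 3 (ENSMUSG00000024038.12, 1092 bases, mm10 chromosome 17, positions 31527310 to 31528401) that turns a coding sequence of 315 bases into one of 1407. This exon was mostly skipped. Reads joining it numbered 103 and 172 in replicate 1 and 104 and 150 in replicate 2, against 2474 and 2819 that skipped it. Inclusion was 5.27% (95% Wilson interval 4.49% to 6.21%) and 4.31% (3.64% to 5.11%). Here and for Atp5c1, the intervals are on the mean of the joining junctions and leave out the difference between those junctions. From mm10 transcripts it was 7.16% and 6.29%, and from mm9 transcript RPKM 11.4% and 10.6%, so all 3 readouts placed the short form far above the long one.

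**Figure D4:**
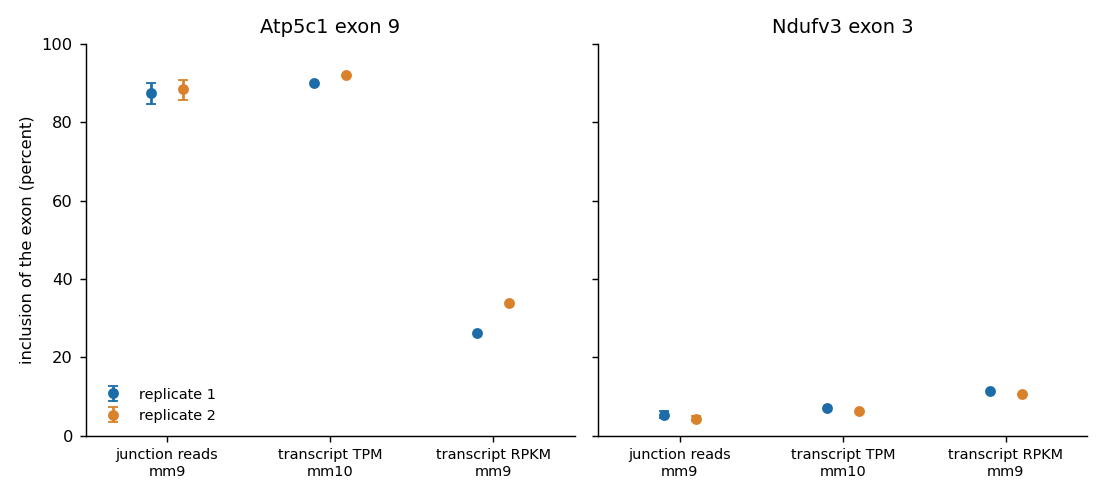
Inclusion of exon 9 of Atp5c1 (left) and exon 3 of Ndufv3 (right) in percent, from mm9 junction reads, mm10 transcript TPM and mm9 transcript RPKM, with 1 point per replicate and 95% Wilson intervals on the junction reads, which cover counting error only. Atp5c1 stands at 87.5% to 92.2% in the first 2 readouts and at 26.2% and 33.9% in the third, and Ndufv3 stays at 11.4% or below in all 3.

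The second, older quantification on mm9 gave gene levels in RPKM, which allows the order of the members to be checked. All 87 members had a row there. Across them the mm10 FPKM and mm9 RPKM had a Spearman rho of 0.81, against 0.99 across 20162 nuclear protein-coding genes. The members span a narrower range of levels, and the part of this in the lower rho was not tested. The largest changes of place were Atp5h (rank 13 of 87 in mm10 and 61 in mm9), Atp5g1 (20 and 68), Atp5l (12 and 59), Ndufs5 (26 and 69) and Cox7c (14 and 47). Atp5g1 had 10.3 and 2.99 RPKM in mm9, against 58.6 and 58.5 RPKM for Atp5g3, although the mm10 tables put it at 67.6% of the FPKM of Atp5g3. At the top, Atp5b was at rank 3 in mm10 and 1 in mm9 (160 RPKM), and Cox4i1 at 1 and 4 (105 RPKM). In the 8 isoform families the highest member was the same in both quantifications.

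All 5 of these members have pseudogene copies elsewhere in the genome. Compared with GENCODE M21 pseudogenes, 34 members had at least 1 copy of 90% identity or more over 80% of the coding sequence, 79 copies in all, and Atp5l alone had 13. Among these 34 members the rho between mm10 and mm9 was 0.63, and among the 53 without a copy it was 0.94. The groups differ in range, which enters a rho. Members with a copy ran from 44.5 TPM for Cycs to 1481 TPM for Cox6a1. Those without ran from 0 TPM for Cox8c to 1824 TPM for Cox4i1 and include the rare forms Cox6a2, Cox7b2 and Cox8b. The part of range in this gap was not tested. Of the members with a copy 16 stood at least 2-fold higher in mm10, relative to the median ratio of nuclear protein-coding genes, and of those without a copy 11 did, against 3.35% of 12486 genes. Atp5mpl, with no copy, stood furthest above that ratio, by 3.49 on the log2 scale (146 FPKM and 2.34 RPKM). Shorter transcripts stood higher too, by a median of 1.12 on the log2 scale under 600 nucleotides for members and 0.84 for other genes. The handling of reads with several matches in the mm9 tables is not given in the sources used here, and its part was not tested.

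Reads over splice junctions varied widely among the members. Over the 83 members with 100 counts or more, the best-covered annotated intron had a median of 35 mm9 junction reads per 100 mm10 gene counts. This yield sets reads of one quantification against counts of another, so it also carries differences between them. Atp5g2 was lowest at 2.43, Cycs had 3.70, Atp5g1 4.14, Ndufs5 4.56, Atp5l 5.00, Cox7c 6.34, Atp5h 10.3 and Ndufb4 10.4, against 28.0 for Atp5g3. Low yield and change of place did not always go together: Cycs, with 8 copies, stood at rank 78 in mm10 and 73 in mm9, and Atp5mpl, furthest apart between the tables, had a yield of 84.4. Of the 79 copies, 59 had a row in the mm10 tables, and the others had no row and so no count. The copies with a row took few counts, 5322 and 5208 together, of which Ndufb4c held 2845 and 2629. Apart from Ndufb4, such copies of a member held 5% or more of the summed counts for Ndufa12 alone, at 6.68% and 7.93%. Spliced reads were found for the rare forms as well: Cox6a2 had 9 and 9 over its best intron, Cox7b2 10 and 18, Cox8b 19 and 25 and Cox4i2 68 and 65, and Cox8c had 0.

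**Figure D5:**
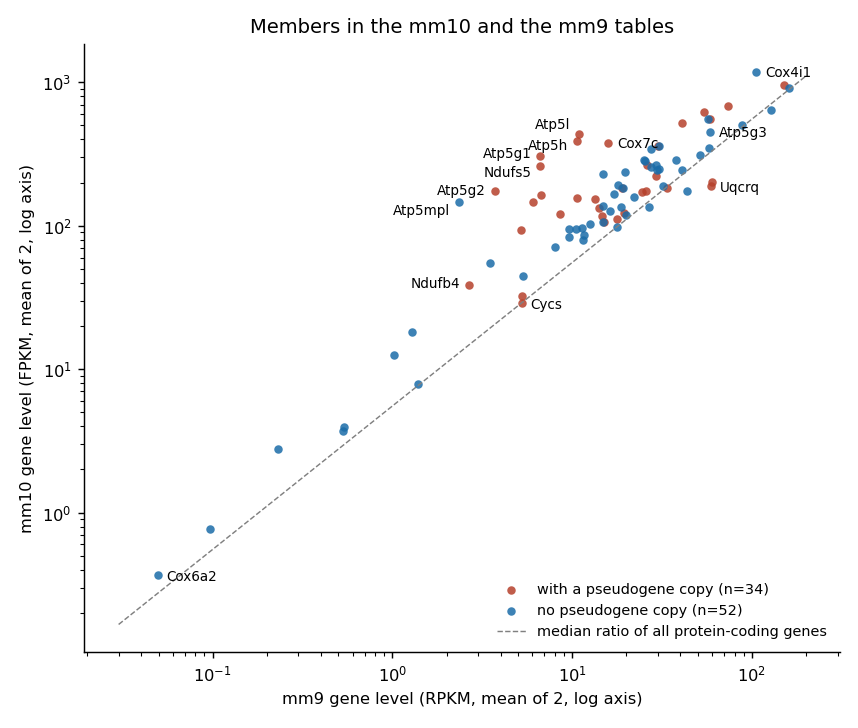
Level of each member in the mm10 tables (FPKM) against the mm9 tables (RPKM), both as the mean of 2 on log axes, in red for members with a pseudogene copy and in blue for those without; the dashed line is the median ratio over protein-coding genes. Atp5mpl, with no copy, stands furthest above the line at 2.34 RPKM, and Atp5g1, Atp5g2, Atp5h, Atp5l and Ndufs5, each with a copy, stand far above it at 3.71 to 10.9 RPKM.

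The members are spread over 19 chromosomes, with 9 on the fullest. Of the 87, 22 (25.3%) overlap a protein-coding gene on the opposite strand, against 20.2% of nuclear protein-coding genes at 1 TPM or more. Atp5j, for coupling factor 6, is one of these, overlapping Gabpa, which encodes the DNA-binding part of nuclear respiratory factor 2; Atp5j had 8825 and 8930 counts and Gabpa 2739 and 2719. The libraries are labelled as stranded, but how the strand was used in counting is not given in the sources used here.

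Promoters of subunit genes are known for sites of nuclear respiratory factors, which belong to the regulators measured above. RefSeq promoter sequences (GRCm38.p6, 250 bases before the start site and 50 after it) were available for 68 members. The NRF1 core GCATGCG, on either strand, was in 11 of them (16.2%), against 4.69% of 16317 promoters of nuclear protein-coding genes and 9.10% of 890 promoters of other genes at 100 TPM or more. The ETS core CCGGAAG, which nuclear respiratory factor 2 recognizes, was in 15 (22.1%), against 12.4% and 17.8%. The YY1 core ATGGCGG was in 8 (11.8%), against 5.63% and 9.66%, and 7 of these 8 were complex I genes, as were 32 of the 68 promoters searched. The CCAAT box, CCAAT, was in 30 (44.1%), against 38.7% and 37.8%, and 22 promoters held none of the 4. These are matches of letters, counted without a test, and a promoter was counted once per motif; no motif contains another, but matches of different motifs may share bases.

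The genes with the NRF1 core were Sdhb, Uqcr11, Uqcrc1, Cycs, Cox6a1, Ndufa6, Ndufa8, Ndufa11, Atp5g2, Atp5k and Atp5l, which spanned 44.5 to 1481 TPM. The windows below show the core in capitals in the highest gene of complexes I and IV, of ATP synthase and for cytochrome c that had it upstream with enough bases on both sides, read on the strand of the gene.
Ndufa6, chr15:82354341-82354401, minus strand, 83 bases before the start site: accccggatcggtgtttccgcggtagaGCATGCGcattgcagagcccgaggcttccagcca
Cox6a1, chr5:115349085-115349145, minus strand, 160 bases before: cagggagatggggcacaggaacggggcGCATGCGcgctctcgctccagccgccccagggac
Atp5g2, chr15:102671054-102671114, minus strand, 40 bases before: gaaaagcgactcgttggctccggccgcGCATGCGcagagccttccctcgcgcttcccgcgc
Cycs, chr6:50566596-50566656, minus strand, 60 bases before: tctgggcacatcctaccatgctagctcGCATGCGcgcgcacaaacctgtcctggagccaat
Their genes stood at 392 TPM for Ndufa6, 1481 TPM for Cox6a1, 268 TPM for Atp5g2 and 44.5 TPM for Cycs, so the same core was found before genes of very different levels.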

How the data were processed

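Members and lists were chosen with earlier results of these data known. For each library the authors deposited gene and transcript tables on mm10 with GENCODE M4, per the file headers and index: expected counts, TPM, FPKM, posterior mean TPM and the percent of a gene's TPM held by each transcript. The deposited mm9 tables give RPKM per Ensembl 65 gene and transcript in attributes (column 6 is another number, not used) and junction read counts; their replicate numbers name no library. No aligner or counter is named in the sources used here. The deposited lengths and effective lengths are in nucleotides.

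Gene classes, coordinates and transcripts came from GENCODE M21 (GRCm38, the mm10 assembly) through unversioned identifiers, which found 42462 of 43346 genes. Expected counts were rounded. Library ratios are differences of log2 CPM in edgeR 4.0.16 (R 4.3.3) after TMM scaling, prior count 2, where both libraries together had 100 counts or more, checked on simulated counts; a member was called at a difference of 25%. DESeq2 1.42.0 size factors, total counts, spike-in totals and TPM + 1 were alternatives. Of the members, 66 had whole counts in both libraries (tolerance 0.005) and 21 a fraction, which marks reads divided among genes. Coding sequences were compared with pseudogenes by blastn 2.17.0. Motifs were searched on both strands, in 1 promoter per gene. Junctions were matched to annotated mm9 introns.

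Named are the 4 highest and 2 lowest members of each role group, all members of the isoform families, the 3 largest ratios in each direction, the 5 largest rank changes, members with a non-coding or minor leading transcript, and Atp5c1 and Ndufv3; Ndufa6, Uqcrb, Atp5j, Ndufa12 and the motif holders were named after their values were seen. A gene that this rule names is not reported here, but it stays in the counts and medians. Intervals and floors cover counting error only. The libraries differed by more than counting noise, with a chi-square of 29.7 per degree of freedom over genes with 100 counts or more (median per gene 3.17) and of 15.4 over members (median 8.73), and were kept as 2 samples.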

Additional observations from a re-analysis of the deposited data

How the results depend on the processing

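The median level of 262 TPM was 260 with posterior mean TPM, 361 with TPM rescaled to nuclear genes, 171 in FPKM, 268 over members at 1 TPM or more in both libraries and 258 to 261 when either replicate was left out. Over members with no pseudogene copy, an alternative chosen after seeing the data, it was 225. The 73 members at 100 TPM or more stayed between 55 (at a threshold of 200 TPM) and 76 (at 50 TPM) under every alternative run. The median log2 ratio between the libraries of -0.04 was -0.05 with DESeq2 size factors, 0.01 with the spike-in total and 0.01 with TPM + 1, while the median of all genes tested moved with it, to 0.05 and 0.06. The 1 member at least 25% apart became 2 without the count minimum and 0 at 2-fold; the further member was Cox8b. The leading transcript share of 95.5% was 95.6% by expected counts. The rank agreement of 0.81 between mm10 and mm9 was 0.76 over members at 1 or more in both. It was 0.94 over members with no pseudogene copy, again chosen after seeing the data, and these include the rarest forms. The cause was not tested. For single genes, posterior mean TPM was between 98.7% and 103% of TPM over the 85 members averaging 1 TPM or more. No paired analysis was possible because both libraries belong to 1 group. With 2 libraries, depth limits Cox6a2, Cox7b2, Cox8b and Cox8c, all under 100 counts over both.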
